A study of Oryza sativa with 8 samples.

Results

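Roots of rice overexpressing OsbZIP83, a bZIP transcription factor, were compared with roots of the non-transformant (NT). The members were the 4 root libraries among the 8 libraries of the study: 1 library from each of b83OX-13, b83OX-15 and b83OX-19 (below, lines 13, 15 and 19) and 1 NT library. All plants were of cultivar Tsukinohikari, were grown in hydroponics and received sufficient iron, the controls included. Each line is a separate transformed line with 1 root library. How many plants went into a library was not given in the sources used here, nor was the promoter that drives the transgene. Messenger RNA was measured by Lasy-Seq, a method that reads the 3′ ends of transcripts, and values are reads per 1000000 gene reads (RPM), which for 3′ end reads do not scale with gene length. NT is 1 library, so its own spread was not measured, and each test assumes that it varies like the other groups. Fewer cells of a type and less RNA per cell cannot be told apart in such bulk samples.

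The root libraries held about 17000000 to 31600000 gene reads by the size of 1 read in the deposited values. The labelled tissue was checked against markers. The summed level of 6 root markers was 8160 RPM in NT against 6968, 9052 and 7968 RPM in lines 13, 15 and 19. In the leaf libraries this sum was 0.411 to 15.6 RPM. RCc3, OsLsi1 and OsLsi2 made up most of the root sum. OsHAK5, also of this set, did not mark roots here. It was at 0.372 to 1.21 RPM in roots and at 3.68 to 11.5 RPM in leaves of the lines. Of 9 green leaf markers, 8 were listed at 0 in the NT roots. OsCAB1R made up the whole green leaf sum of 190 RPM there, where the sums in the lines were 0, 10.2 and 7.67 RPM, and it lies in a run of called genes on chromosome 9 (below). A share of each gene's reads over all libraries appeared to have been deducted from each library before deposit (see the processing). Such a step pushes low root values of genes abundant in leaves to 0. The zeros of these markers therefore cannot show that leaf RNA was absent. Chloroplast rRNA was a larger share of rRNA in the roots of all 3 lines than in NT roots (values near the end). The overexpressed gene itself stood at 32 RPM in the NT roots, and lines 13, 15 and 19 had 154, 186 and 188 RPM.

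OsbZIP83 belongs to the TGA type of bZIP factors, which bind TGACG elements and are known in plants for roles in salicylate-linked defence and in detoxification. Roots take up mineral ions and water through membrane transporters and pumps. Their cells grow by loosening and rebuilding a wall of cellulose, xyloglucan, xylan and pectin, which lignin and suberin later strengthen. Peroxidases, NADPH oxidases, glutathione enzymes, glutaredoxins and thioredoxins set the redox state of wall and cytoplasm. The results are ordered by these functions: transport, wall, hormones, defence and redox.

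Over all 21991 genes tested, few were called as different. A gene was called when its adjusted p was under 0.05 in limma with Benjamini-Hochberg adjustment over all genes tested. By this rule 256 genes were called (1.16%), of which 144 rose (0.655%) and 112 fell (0.509%). Which direction held more calls depended on the treatment of low values, since a pseudocount of 5 RPM gave 154 higher and 256 lower, and no filter gave 179 higher and 505 lower. The unadjusted p was under 0.05 for 2959 genes (13.5%), 1354 higher (6.16%) and 1605 lower (7.3%). All 3 lines lay above NT for 7015 genes (31.9%) and below NT for 7335 (33.4%), so that position alone is common. A count that does not use the spread gave 113 genes (0.737%) at least 2-fold higher and 55 (0.359%) at least 2-fold lower in each line, out of 15332 genes whose root mean reached 5 RPM. Of these 168 genes, 118 were also called.

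The called genes were not spread evenly along the chromosomes. There were 10 runs of at least 4 called genes with at most 25 tested genes between neighbours, a definition chosen after the calls were seen. They lay on chromosomes 2, 6, 7, 9, 10 and 11, and held 539 tested genes and 116 calls. Chromosome 11 alone had 71 calls among 1206 tested genes. The longest run, Os11g0484700 to Os11g0605100, had 40 calls among 243 tested genes, 5 higher and 35 lower. Of the called genes in runs, 62 were called in leaves too, 61 of them in the same direction. What produced the runs was not tested. Outside them 140 of 21452 genes were called (0.653%), 92 higher (0.429%) and 48 lower (0.224%), and each class below is given with and without the runs.

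**Figure D1:**
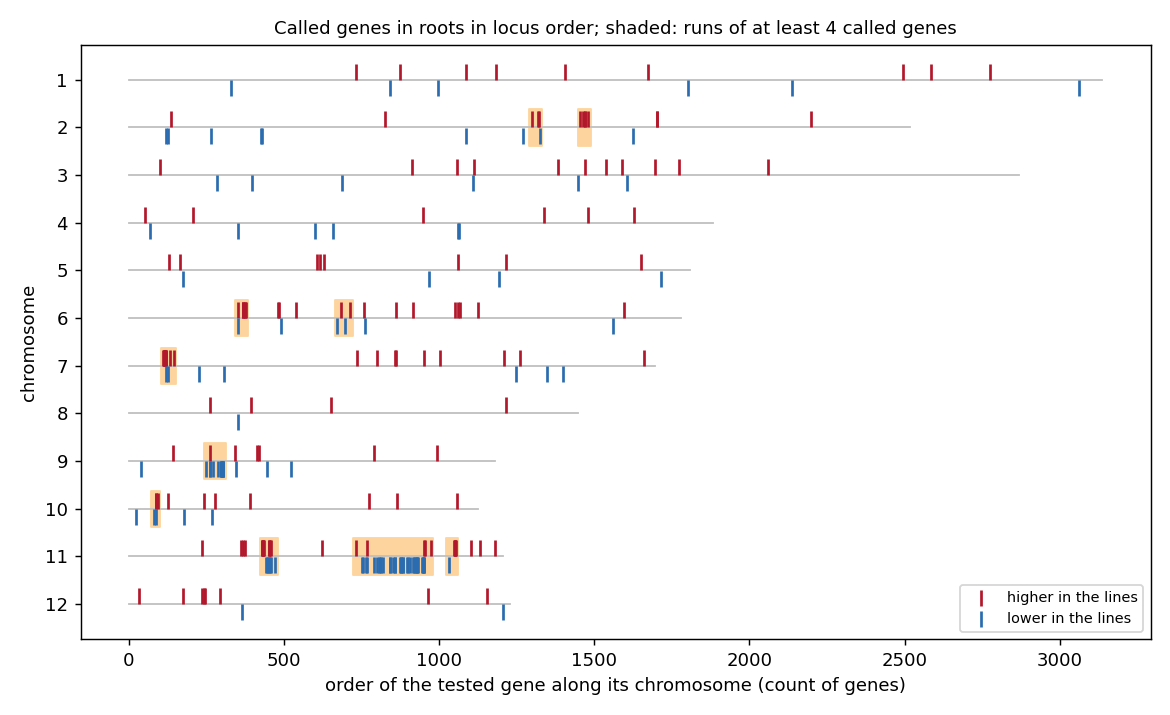
Genes called in roots, each a tick at its order among the tested genes of its chromosome (x axis, count of genes; y axis, chromosome), by direction, with the 10 runs shaded. The 71 calls on chromosome 11 lie mostly in 3 shaded runs.

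Among transporters, almost nothing passed the test. Of 507 tested genes in the class (721 members), 1 rose and 1 fell (0.394%, against 1.16% of all genes). The median log2 fold change was -0.03 against 0.00 for all genes tested. The call outside the runs was Os10g0111300, similar to a nitrate transporter, at 7.60 RPM in NT against 4.48, 4.10 and 4.57 RPM in lines 13, 15 and 19. The lines lay close together and below NT, with a log2 fold change of -0.68 ± 0.11 (SE; adjusted p = 0.0419 in limma). This call was lost when any of the 3 lines was left out. Inside the run on chromosome 7, Os07g0131600, similar to a monosaccharide transporter, rose from 0.500 RPM to 6.0, 6.05 and 4.90 RPM.

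Aquaporins and silicon transporters, which carry water and silicic acid across root membranes, stood below NT as a list although no member was called. Of 15 tested members, 11 had all 3 lines below NT (73.3%, against 33.4% of all genes). For 2 all 3 lines were above NT (13.3%, against 31.9%), and the median log2 fold change was -0.35. Their summed level was 12870 RPM in NT against 9372, 10516 and 9652 RPM in the lines. OsPIP1;1, a plasma membrane aquaporin, was at 1149 RPM in NT against 937, 908 and 832 RPM in the lines (adjusted p = 0.249 in limma). OsLsi1, the silicon influx channel, was at 2586 RPM in NT against 1708, 2565 and 2292 RPM, so that line 15 nearly reached NT. OsLsi2, the silicon efflux transporter, was at 2428 RPM in NT against 1540, 2211 and 2070 RPM in the lines, with line 13 lowest again. Of the 15 members, 7 were lower and 1 higher at an unadjusted p under 0.05 in limma. Over all genes, 7.3% were lower and 6.16% higher at that p.

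Phosphate and sulfate transporters gave no call among 37. All lines were above NT for 14 of them (37.8%, against 31.9% of all genes) and below for 9, and the list median was -0.06, 0.06 and 0.09 in lines 13, 15 and 19. OsPT2, a low-affinity phosphate transporter, was at 139 RPM in NT against 220, 382 and 446 RPM in lines 13, 15 and 19. The lines did not overlap NT but differed 2-fold among themselves, and the adjusted p was 0.172 in limma. OsPT8, a high-affinity phosphate transporter, was at 76.8 RPM in NT against 101, 121 and 126 RPM in the lines (adjusted p = 0.369 in limma). OsPHO1;2, which loads phosphate into the xylem, was at 78.8 RPM in NT and lower in the lines, at 63.9 to 75.2 RPM.

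Nitrogen, potassium, sugar and metal transport gave no call beyond those named. OsNAR2.1, the partner of the high-affinity nitrate transporters, was at 420 RPM in NT against 315, 423 and 362 RPM in the lines. NT lay inside the range of the lines for this gene, and also for OsMST3, a hexose transporter, at 602 RPM against 610, 601 and 671 RPM. OsHAK1, a high-affinity potassium transporter, was at 160 RPM in NT against 131 to 144 RPM in the lines. OsHKT1;5, which retrieves sodium from the xylem, was at 7.06 RPM in NT against 1.1, 3.01 and 2.69 RPM in the lines (adjusted p = 0.149 in limma). OsNRAMP5, the manganese and cadmium uptake transporter, was at 225 RPM in NT against 128, 164 and 174 RPM in the lines (adjusted p = 0.252 in limma). The plasma membrane proton pump AHA7 was at 1351 RPM in NT against 1106 to 1167 RPM in the lines. Of 21 proton pump genes, 12 had all lines below NT (57.1%, against 33.4% of all genes) and 4 above (19.0%, against 31.9%).

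Of the 5 classes, cell wall genes had the largest share of members on 1 side of NT. Of 447 tested members (765 in all), 221 had all 3 lines below NT (49.4%) and 85 above (19.0%), where all genes gave 33.4% and 31.9%. The median log2 fold change was -0.12, and it was -0.11, -0.11 and -0.19 in lines 13, 15 and 19 alone. The summed level was 40955 RPM in NT against 36468, 36405 and 35035 RPM in the lines. Of these genes 4 rose and 5 fell by the test (2.01%, against 1.16% of all genes), 4 and 3 of them outside the runs. The lean therefore rests on many small differences that did not pass singly. Because every line is read against the same NT library, a departure of that library from other NT roots would enter all 3 medians alike and cannot be told apart from the genotype.

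**Figure D2:**
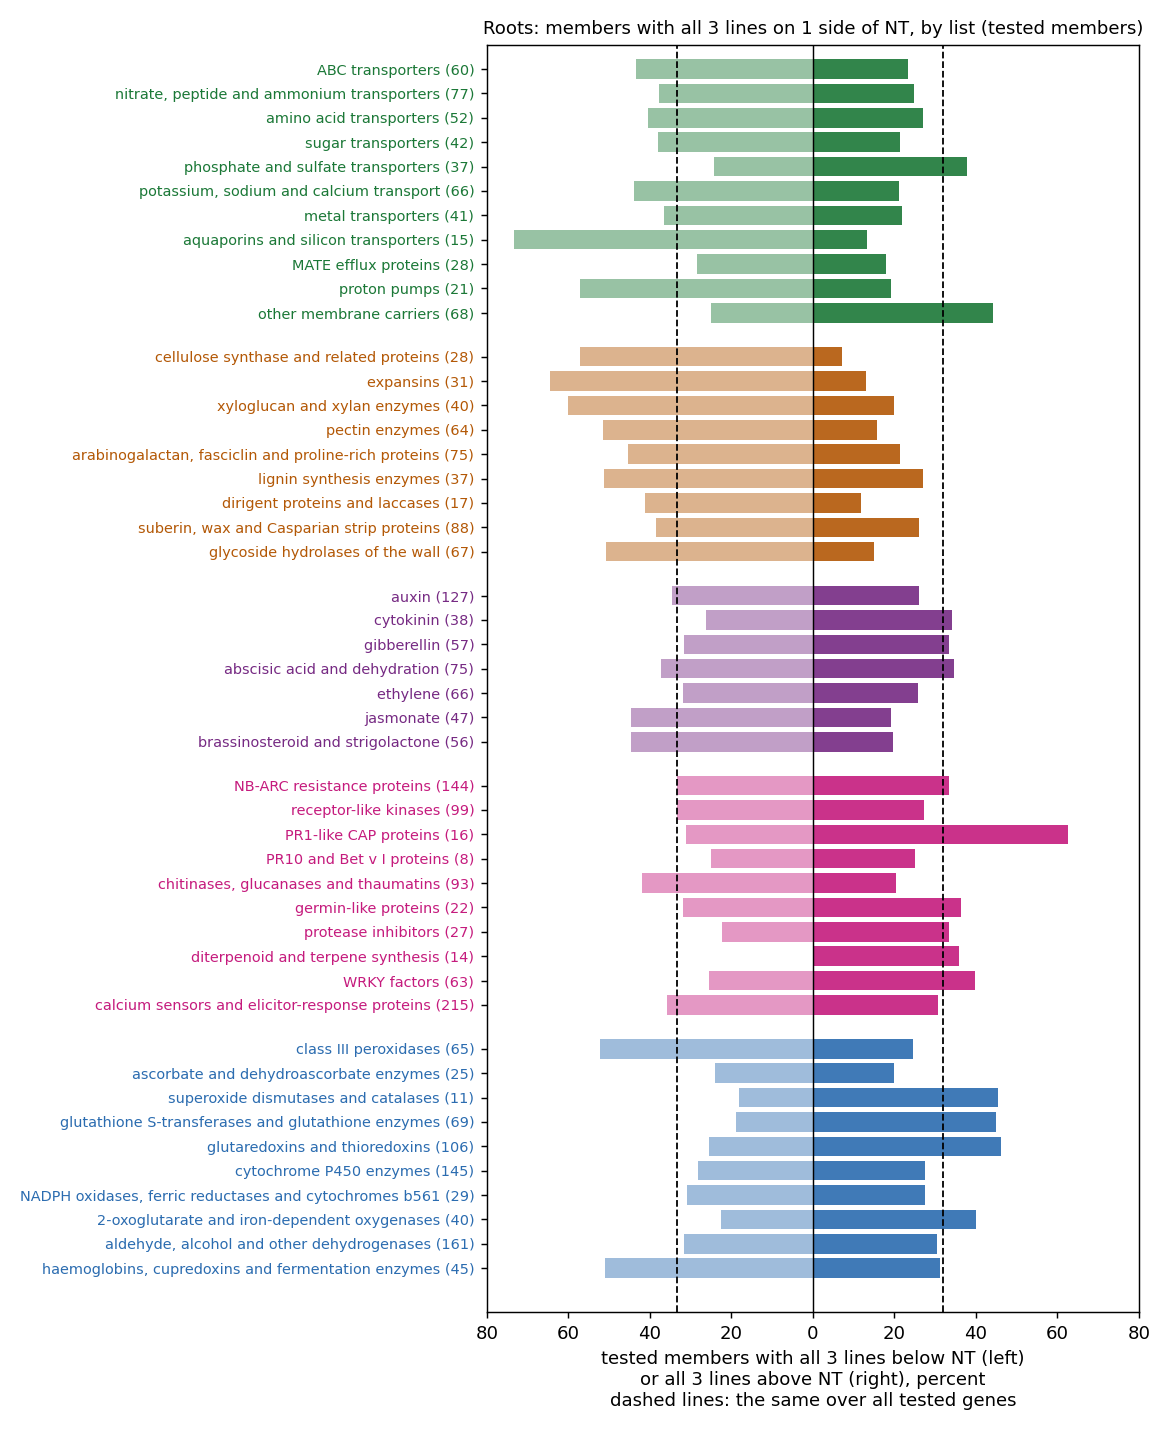
Share of tested members (x axis, percent) with all 3 lines below NT (left) or above NT (right), for each function list (y axis), with dashed lines at 33.4% and 31.9%, the shares over all tested genes. Every cell wall list reaches farther to the left than the dashed line.

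Genes of cellulose synthesis stood below NT without a call. Cellulose synthases and related proteins had 16 of 28 tested members with all lines below NT and 2 above, with a median log2 fold change of -0.24. OsCESA1, a subunit of the primary wall cellulose synthase, was at 352 RPM in NT against 244, 261 and 218 RPM in the lines (adjusted p = 0.396 in limma). The COBRA-like protein BC1L4, of a family that takes part in cellulose assembly, was at 435 RPM in NT against 309, 312 and 288 RPM. CESA4, CESA7 and CESA9, the 3 subunits of the secondary wall complex and markers of xylem, summed to 226 RPM in NT against 145, 147 and 109 RPM in the lines. Each of the 3 had all lines below NT, and their adjusted p were 0.298, 0.330 and 0.240 in limma.

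Wall loosening genes leaned the same way. Expansins, which loosen the bonds between wall polymers, had 20 of 31 members with all lines below NT and 4 above, at a median of -0.24. EXPB2, the most abundant, was at 388 RPM in NT against 304 to 312 RPM in the lines (adjusted p = 0.797 in limma). Xyloglucan and xylan enzymes had 24 of 40 members below and 8 above, at a median of -0.30. At an unadjusted p under 0.05 in limma, 11 were lower and 0 higher, where all genes gave 7.3% lower and 6.16% higher. XTH17, a xyloglucan endotransglucosylase that cuts and rejoins wall tethers, was at 1206 RPM in NT against 891, 787 and 672 RPM in the lines (adjusted p = 0.256 in limma). The only call of this list was XTH2, at 24.1 RPM in NT against 4.82, 3.63 and 3.65 RPM in the lines, which lies in the long run on chromosome 11.

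Pectin genes were the wall genes with calls in both directions. PME1, a pectin methylesterase, an enzyme that removes methyl groups from pectin, was listed at 0 in the NT library, while the lines had 5.11, 3.25 and 4.08 RPM (adjusted p = 0.00225 in limma). A pectinesterase inhibitor domain gene, Os10g0508700, rose from 0.590 RPM to 3.47, 6.44 and 4.90 RPM, a log2 fold change of 1.87 ± 0.26 (SE; adjusted p = 0.0200 in limma). The call was lost without line 19 (adjusted p = 0.0957 in limma). By the deposited values, a small share of each gene's reads over all 8 libraries appeared to have been deducted from each library. With that share added back, the log2 fold change was 0.75 (adjusted p = 0.115 in limma). Its leaf levels were far higher, at 351 RPM in NT against 295 to 371 RPM in the lines. A pair of polygalacturonases, which cut the pectin backbone, fell; both were picked after their values were seen. Os05g0578600 was at 26.2 RPM in NT against 8.62, 10.2 and 8.75 RPM in the lines, a log2 fold change of -1.42 ± 0.16 (SE; adjusted p = 0.00711 in limma). Os01g0296200 was at 3.74 RPM in NT against 1.01, 0.730 and 0.632 RPM, and its call (adjusted p = 0.0333 in limma) was lost without line 15 or without line 19. The list as a whole had 33 of 64 members below NT and 10 above.

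Lignin genes did not all lie on the same side of NT. PAL1, phenylalanine ammonia-lyase at the head of the phenylpropanoid pathway, was at 4603 RPM in NT against 3491, 3431 and 3210 RPM in the lines (adjusted p = 0.522 in limma). OsCAD2, the cinnamyl alcohol dehydrogenase known for lignin in rice, was at 1072 RPM in NT against 857 to 919 RPM in the lines. CAD8C, of the same enzyme family, moved the other way, from 10.2 RPM to 30.4, 34.8 and 34.0 RPM. The lines agreed closely, at 33.1 ± 2.32 RPM (SD, n = 3), and the log2 fold change was 1.61 ± 0.12 (SE; adjusted p = 0.000724 in limma). Its neighbour CAD8A, with 3 tested genes between them, was at 246 RPM in NT against 464, 404 and 389 RPM in the lines (adjusted p = 0.0479 in limma), a call lost without any one line. CAD8A was picked after its values were seen. Reads of such close copies can be shared between them, which makes the split between them uncertain.

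A dirigent protein gene, Os10g0335000, of a family that guides the coupling of lignin-like phenols, fell from 134 RPM to 44.9, 48.0 and 38.7 RPM. The lines stood at 43.9 ± 4.73 RPM (SD, n = 3), and the adjusted p was 0.00397 in limma. Dirigent proteins and laccases together summed to 697 RPM in NT against 532, 488 and 426 RPM in the lines. Suberin, wax and Casparian strip genes were more mixed, with 34 of 88 below NT and 23 above. Their one call was the 3-ketoacyl-CoA synthase Os11g0591200 in the long run on chromosome 11, an enzyme that lengthens fatty acids, at 203 RPM in NT against 51.6, 49.1 and 37.9 RPM. The most abundant member, Os11g0649600 of the CASP-like family UPF0497, was at 442 RPM in NT against 624, 625 and 650 RPM in the lines (adjusted p = 0.195 in limma). The abundant glycine-rich wall protein GRP3 was at 6673 RPM in NT against 6818 to 7119 RPM in the lines.

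**Figure D3:**
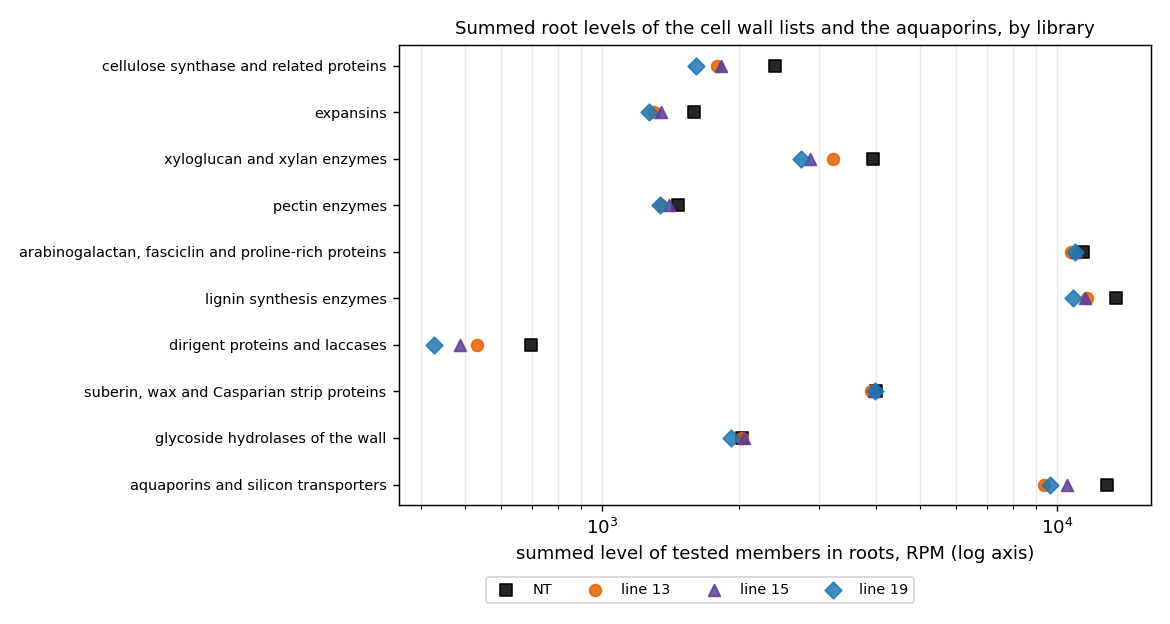
Summed root level of the tested members of each cell wall list and of the aquaporins and silicon transporters (y axis) in RPM on a log axis (x axis), with 1 point per library. For the cellulose list NT is at 2394 RPM and the lines are at 1789, 1822 and 1609 RPM.

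Dividing cells are marked by histone and cyclin genes, none of which was called. Summed histone levels were 6333 RPM in NT against 6073, 6302 and 6122 RPM in the lines, and summed cyclin levels were 566 RPM against 531, 538 and 527 RPM. Of 53 histone genes, 29 had all lines below NT (54.7%, against 33.4% of all genes) and 11 above (20.8%, against 31.9%), at a median of -0.13. The 2 root hair markers found were near 0 in every library, at 0.924 to 2.61 RPM in sum. Whether the proportions of root zones had a part in the wall values was not tested.

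Hormone genes gave 4 calls among 457 tested (0.875%), near the 1.16% over all genes, 1 higher and 3 lower. The 457 tested members had a median log2 fold change of -0.02. In all lines 127 were above NT (27.8%, against 31.9% of all genes) and 162 below (35.4%, against 33.4%). Auxin (127 genes), cytokinin (38), gibberellin (57), and brassinosteroid and strigolactone (56) had no call under these lists. The oxygenase GA2OX6 and the P450 SLB1, described with the redox genes by their annotated enzyme family, bear names from gibberellin and strigolactone metabolism and were called lower. OPR4, annotated as a 12-oxophytodienoic acid reductase, was called higher, at 1.67 RPM in NT against 132, 100 and 121 RPM in the lines. OPR5, the most abundant gene of the jasmonate list and of the same family, was at 866 RPM in NT against 1118, 974 and 1165 RPM in the lines (adjusted p = 0.885 in limma). Reads of the neighbouring family members can be shared, which makes the split between them uncertain. OsOPR7, also of this family, had a log2 fold change of 0.11 (adjusted p = 0.678 in limma). Whether the OPR4 change bears on jasmonate synthesis was not tested. In the same list, OsAOC, the allene oxide cyclase, was at 194 RPM in NT against 144, 151 and 156 RPM (adjusted p = 0.179 in limma). OsAOS2, an allene oxide synthase, and OsJAZ8, a jasmonate repressor, had NT within the range of the lines. Every line was below NT for 21 of the 47 jasmonate genes (44.7%, against 33.4% of all genes) and above it for 9 (19.1%, against 31.9%).

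ASR2, of a family induced by abscisic acid and drying, fell from 65.3 RPM to 15.8, 14.5 and 14.1 RPM. The log2 fold change was -2.07 ± 0.14 (SE; adjusted p = 0.000431 in limma), and the calls of ASR2 and OPR4 were lost under none of the alternatives tried. ASR1, the most abundant member of the same list, had NT at 656 RPM inside the range of the lines, 644 to 772 RPM. The remaining 2 calls lie in the long run on chromosome 11. LOX10, a lipoxygenase, fell from 9.04 RPM to 2.04, 2.50 and 1.64 RPM. OsETOL3, similar to a negative regulator of ethylene synthesis known from Arabidopsis, fell from 83.9 RPM to 38.7, 39.8 and 41.4 RPM. OsBRI1, the brassinosteroid receptor, was at 24.6 RPM in NT against 17.6 to 18.9 RPM in the lines (adjusted p = 0.260 in limma). Of the 56 genes of its list, 25 had all lines below NT (44.6%, against 33.4% of all genes) and 11 above (19.6%, against 31.9%).

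Defence genes had the most calls, and nearly all of them lay in runs. Of 699 tested members 20 rose and 11 fell (4.43% called, against 1.16% of all genes), and outside the runs 3 rose and 0 fell. Inside the runs 21.5% of all tested genes were called, whatever their function. The class median was 0.00, with 218 above NT and 233 below. PR1-like genes, small secreted proteins that mark pathogen responses, summed to 7691 RPM in NT and to 16608, 14349 and 14588 RPM in lines 13, 15 and 19. Of 16 tested PR1-like genes 9 rose and 1 fell, all in the run on chromosome 7, where several loci have identical values and so count as copies that the reads cannot separate. These calls hold only 4 distinct sets of values.

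Os07g0126100, Os07g0125201 and Os07g0126500, with identical values, rose from 130 RPM to 1177, 971 and 1029 RPM, a log2 fold change of 3.01 ± 0.13 (SE; adjusted p = 6.64e-05 in limma). Os07g0125000, annotated as OsPR1b in the deposited table, and its identical copies rose from 7.88 RPM to 174, 141 and 135 RPM. PR1-71 and its copies, the most abundant, rose from 1234 RPM to 3327, 2746 and 2743 RPM. PR1-73, in the same run, fell from 340 RPM to 120, 101 and 84.6 RPM (adjusted p = 0.00596 in limma). Neighbours in 1 gene cluster therefore moved in opposite directions. Outside the runs the PR1-like list had a median of -0.36 and no call.

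NB-ARC genes encode intracellular immune receptors that differ widely between rice cultivars. Of 144 tested, 7 were called higher and 8 lower (10.4%, against 1.16% of all genes), all in runs on chromosome 11. Os11g0639600 rose from 0.634 RPM to 24.0, 26.9 and 27.7 RPM. Os11gRGA5, a receptor of the pair known from blast resistance, rose from 0.0872 RPM to 6.72, 7.95 and 7.17 RPM. Os11g0227800 fell from 13.1 RPM to 1.1, 0.918 and 0.839 RPM (adjusted p = 0.000379 in limma). In each of these genes the lines stood close to one another and far from NT, which the test and the rule that named them favour.

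Outside the runs the defence calls, all picked after their values were seen, were 2 germin-like proteins and a thaumatin-like protein. GLP12-4 was at 6.38 RPM in NT against 13.0, 13.3 and 13.6 RPM in the lines, and GLP12-2 at 1.41 RPM against 4.8, 3.41 and 4.22 RPM. The call of GLP12-4 was lost without line 15 or line 19, and that of GLP12-2 without line 13 or line 19. Both lie near OsbZIP83 on chromosome 12, GLP12-2 with 7 tested genes between. The thaumatin-like gene Os09g0536400, of a family with antifungal members, rose from 12.0 RPM to 27.7, 29.0 and 35.9 RPM (adjusted p = 0.0360 in limma), a call lost without any one line. WRKY factors, which control defence genes, had no call among 63. In all lines 25 were above NT (39.7%, against 31.9% of all genes) and 16 below (25.4%, against 33.4%). WRKY68, the most abundant, had NT at 391 RPM inside the lines' range of 316 to 402 RPM. Diterpenoid phytoalexin genes had no call among 14. OsMAS, of momilactone synthesis, was at 59.4 RPM in NT against 198, 104 and 81.9 RPM in the lines, a spread set by line 13 (adjusted p = 0.565 in limma).

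**Figure D4:**
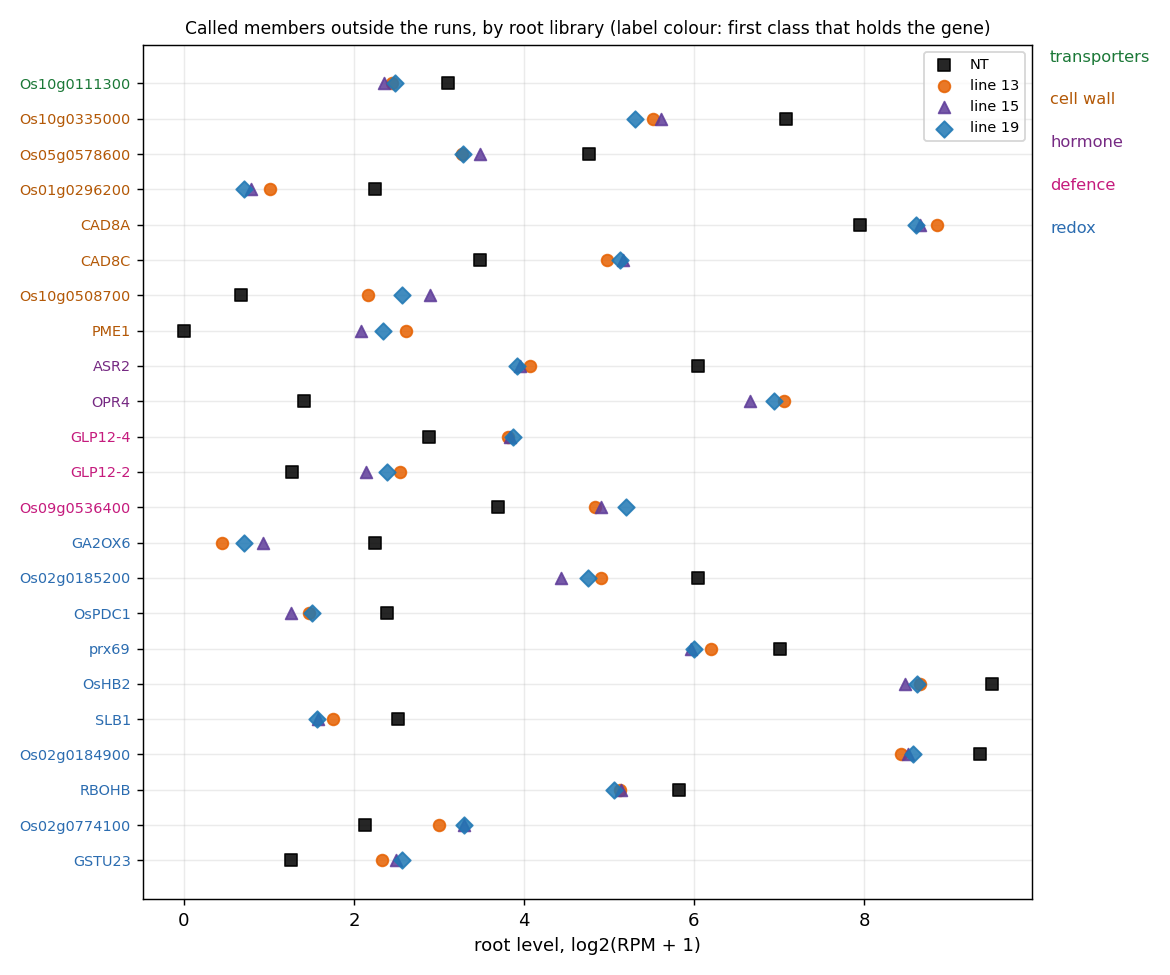
Root level on a log2(RPM + 1) scale (x axis) of the members of the 5 classes called outside the runs (y axis), with 1 point per library. In each gene the 3 lines lie on 1 side of NT, as they did in all 256 called genes. CAD8C, for example, is at 30.4 to 34.8 RPM against 10.2 RPM.

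In the redox class 5 genes rose and 8 fell of 695 tested (1.87%, against 1.16% of all genes), 4 and 8 of them outside the runs. The class as a whole was centred on NT, with a median of 0.00 and 232 above against 215 below. The rises were CAD8C and CAD8A, already described, a glutathione S-transferase, a thioredoxin-like gene and a glutaredoxin. The falls were 3 cytochrome P450 genes, a 2-oxoglutarate-dependent oxygenase, an NADPH oxidase, the class III peroxidase prx69, the haemoglobin OsHB2 and the pyruvate decarboxylase OsPDC1. GSTU23, a glutathione S-transferase, rose from 1.39 RPM to 4.01, 4.63 and 4.94 RPM, a log2 fold change of 1.21 ± 0.16 (SE; adjusted p = 0.0162 in limma). With the deducted reads added back the log2 fold change was 0.74 and the call was lost (adjusted p = 0.0805 in limma). Os02g0774100, similar to a thioredoxin, rose from 3.37 RPM to 7.03, 8.85 and 8.80 RPM, a log2 fold change of 1.07 (adjusted p = 0.0134 in limma), or 0.71 with the deducted reads added back. In leaves both genes were far higher, at 160 and 191 RPM in NT. The glutaredoxin OsGRX9, in a run on chromosome 2, rose from 39.4 RPM to 114, 91.5 and 117 RPM.

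The lists of these enzymes leaned mildly above NT. Glutathione enzymes had 31 of 69 members with all lines above NT (44.9%) and 13 below (18.8%), at a median of 0.05. Glutaredoxins and thioredoxins had 49 of 106 above (46.2%) and 27 below (25.5%), at a median of 0.08. All genes gave 31.9% above and 33.4% below. The most abundant members had NT inside the range of the lines. GSTF2 was at 2395 RPM in NT against 2166 to 2642 RPM in the lines. TRXH, an H-type thioredoxin, was at 693 RPM in NT against 664 to 883 RPM in the lines. APX1, ascorbate peroxidase, and CATB, a catalase, likewise had NT inside the range of the lines.

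Class III peroxidases, which act on wall phenols and peroxide, leaned below NT, with a median of -0.14. Of 65 members, 34 were below (52.3%, against 33.4% of all genes) and 16 above (24.6%, against 31.9%). Prx45, the most abundant, was at 1101 RPM in NT and higher in the lines, at 1268 to 1378 RPM (adjusted p = 0.315 in limma). RBOHB, an NADPH oxidase that makes superoxide at the plasma membrane, fell from 55.6 RPM to 34.1, 34.3 and 32.3 RPM. The lines stood at 33.6 ± 1.08 RPM (SD, n = 3), with a log2 fold change of -0.71 ± 0.10 (SE; adjusted p = 0.0220 in limma). RBOHB was picked after its values were seen, as were prx69 and SLB1. GA2OX6, a 2-oxoglutarate-dependent oxygenase of the family that inactivates gibberellins, fell from 3.74 RPM to 0.369, 0.899 and 0.636 RPM (adjusted p = 0.0343 in limma).

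Of 145 cytochrome P450 genes, 3 fell and none rose (2.07%, against 1.16% of all genes). The adjacent tested genes Os02g0184900 and Os02g0185200 fell together. The first, the most abundant P450, went from 658 RPM to 344, 365 and 382 RPM (log2 fold change -0.86 ± 0.11 (SE); adjusted p = 0.0152 in limma). The second went from 65.3 RPM to 29.0, 20.6 and 25.9 RPM. SLB1, a P450 of strigolactone synthesis, went from 4.75 RPM to 2.36, 1.98 and 1.96 RPM (adjusted p = 0.0456 in limma). Of the 12 redox calls outside the runs, 9 were kept without line 13, but only CAD8C was kept without line 15 or without line 19.

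The leaf libraries entered the test because NT has 1 root library and the 4 groups share 1 estimate of the spread per gene. A gene listed at 0 in all 4 leaf libraries adds no spread there, and such genes were called more often, 24 of 425 (5.65%) against 232 of 21566 (1.08%). They include Os10g0335000, CAD8A, prx69, LOX10, Os02g0184900 and 7 of the 10 called PR1-like genes, whose p-values are therefore small for their root spread. On the 4 root libraries alone, 57 genes were called, and 0 of the transporter, cell wall and redox calls were among them.

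The same contrast in leaves called 834 genes (3.79%). Of the 57 genes of the 5 classes called in roots, 11 were called in leaves, and of the 23 outside the runs, 2 were, OPR4 and ASR2. Over all genes called in roots, 103 of 256 were called in leaves, and 41 of 140 outside the runs. The difference between the root and leaf effects was tested itself, in limma, and called 84 genes (0.382%), among them 15 of the 57 and 39 of all 256 root calls. Some of these genes were near 0 RPM in all leaves, where the difference mostly restates the root change. CAD8C differed between the tissues by 1.81 ± 0.17 on the log2 scale (SE; adjusted p = 0.0139 in limma), since in leaves it was at 235 RPM in NT against 194 to 216 RPM in the lines. The nitrate transporter-like Os10g0111300, 83.6 RPM in NT leaves and 108 to 117 RPM in the leaves of the lines, differed by -1.09 ± 0.16 (SE; adjusted p = 0.0493 in limma). OsETOL3 was lower in roots and stood at 12.4 RPM in NT leaves against 15.8 to 16.5 RPM, a difference of -1.41 (adjusted p = 0.0178 in limma).

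**Figure D5:**
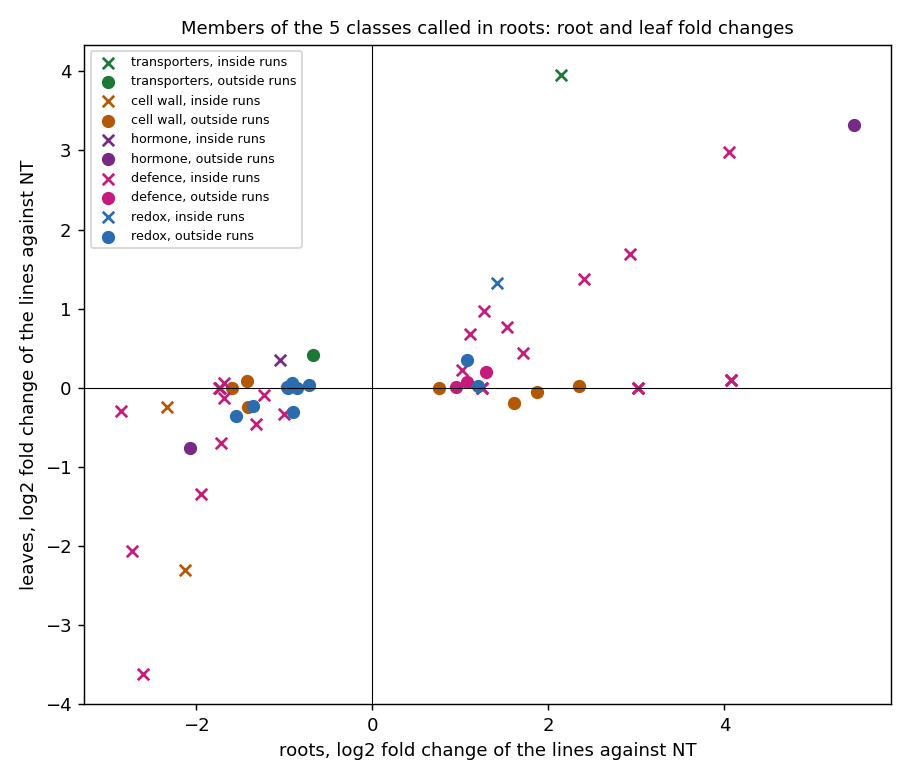
Log2 fold change of the lines against NT in roots (x axis) and leaves (y axis) for the members of the 5 classes called in roots, by class and by position inside or outside the runs. Many points outside the runs lie near 0 on the leaf axis, where genes near 0 RPM in all leaves must lie. OPR4 and ASR2 are the 2 outside the runs that were called in both tissues.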

How the data were processed

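Lasy-Seq libraries of 4 root and 4 leaf samples were analysed. The submitters' processing notes name the build IRGSP-1.0 and the tools RSEM 1.2.21, Bowtie 1.2.3 and Trimmomatic 0.39. The authors deposited 1 table of signal, as RPM scaled within each of 3 classes of features; the gene class was tested, and the rRNA class gave the shares of organelle rRNA. By the values, 0.134% to 0.146% of a gene's reads summed over the 8 libraries appeared to have been deducted from each library before deposit. Such a step lowers root values most for genes abundant in leaves. With that share added back, 46.5% to 53.7% of the values checked were whole reads, against 9.5% to 12.2% as deposited. The step is thus inferred, and adding it back was an alternative. Genes whose mean over the 8 libraries reached 1 RPM were fitted as log2(RPM + 1), with a pseudocount of 1, in limma 3.58.1 (R 4.3.3) with 4 group means and a trended prior, two-sided, adjusted by Benjamini-Hochberg at 0.05. A fold change on this scale understates that of low genes. TMM factors were computed in plain R. Tables and plots used pandas 2.3.3, numpy 2.4.6 and matplotlib 3.10.9.

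Lists were built from words of the deposited descriptions and from symbols. The members and lists were chosen with earlier results of these data known. Named genes were the called members of each class by fold, at most 6 per class and 3 per list, the most abundant member and key genes of each list, and the 3 largest tissue differences each way. Others are said to be picked after their values were seen. Nothing in the sources used here says that the lines were grown apart, so the p-values reflect the spread among these libraries alone, which may be technical.

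Lines carry the same number in root and leaf. The same lines' deviations correlated at 0.268, -0.01 and 0.149, and the shared line is a source of pairing by design, so a replicate block was fitted as an alternative. Tested on simulated data for the root comparison over 21991 genes, the fit recovered 69.1% of the genes changed 2-fold. The fit recovered 100% at 4-fold as at 8-fold, and 16 of 199 calls were unchanged genes. The simulation let NT vary like the other libraries, which is assumed and was not measured. Changes were placed only in genes that reached the root mean required for the 2-fold count above. These rates therefore cannot be carried over to the calls in the real data, least of all to genes at low levels. Promoter, protein and genome sequences were not used here.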

Additional observations from a re-analysis of the deposited data

Results flagged for a closer look

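The root and leaf effects of the following genes differed by the test of the difference itself (limma, adjusted p under 0.05); each value is the root minus the leaf log2 fold change, and no explanation was tested. OsbZIP83 Os12g0152900 differed by -2.70, since its leaf level was 1.62 RPM in NT and 75.3 to 100.5 RPM in the lines. Among transporters Os07g0131600 differed by -1.82 and Os10g0111300 by -1.09. Among wall genes PME1 Os03g0309400 differed by 2.33, XTH2 Os11g0539200 by -2.08, CAD8C Os09g0400300 by 1.81 and Os10g0335000 by -1.60. In leaves PME1 was at 0.0452 RPM or less, XTH2 at 0.115 to 0.459 RPM, and Os10g0335000 was listed at 0. At such levels the pseudocount holds the leaf fold change near 0, so the difference mostly restates the root change. The ethylene gene OsETOL3 Os11g0585900 differed by -1.41.

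Among defence genes Os07g0125000, Os07g0125600 and Os07g0126401, which have identical values, each differed by 3.99 and were at 0.45 RPM or less in leaves. Os07g0125201, Os07g0126100 and Os07g0126500, likewise identical, each differed by 3.01 and were listed at 0 in all leaves. Os11g0227800, at 0.403 RPM or less in leaves, differed by -2.56. The receptor kinase-like Os11g0569500 differed by -1.73. STV11 Os11g0505300, a sulfotransferase of virus resistance, differed by 4.11. It was at 7.11 RPM in NT roots and 12.7 to 20 RPM in the roots of the lines, but at 17.3 RPM in NT leaves and 0.739 to 1.74 RPM in the leaves of the lines.

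The largest negative differences were Os10g0137300, similar to BLN1-1, at -4.69 (listed at 0 in all leaves), OsCER1 Os02g0621300, a wax synthesis gene, at -3.74, and Os01g0162300, a leucine-rich repeat protein, at -3.46. The last 2 were near 0 in all roots.

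In the rRNA class, which enters no comparison, chloroplast rRNA made up 0.125% in NT roots and at least 0.45% in the lines. For mitochondrial rRNA the NT root share was 3.17%, and the lines had 5.58%, 4.96% and 5.78%.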

How the results depend on the processing

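All values here count genes called in roots unless stated. Against 256 genes, a pseudocount of 5 RPM gave 410, no filter on low values 684, a filter at 5 RPM 121, the root libraries alone 57, and the genes outside the runs 140, the last an alternative chosen after seeing the data; leaving out 1 line gave 138 to 294. The split of 144 higher and 112 lower became 154 and 61 with a pseudocount of 0.1 RPM and 85 and 36 with the 5 RPM filter, but turned to 154 and 256 with 5 RPM and 179 and 505 without the filter. The transporters, 2 in the first place, became 8 with a pseudocount of 5 RPM, 6 without the filter, 0 on roots alone and 1 each with the 5 RPM filter, TMM, quantile scaling, added-back reads or outside the runs, and 1 to 8 when a line was left out. The 9 cell wall calls became 5 with a pseudocount of 0.1 RPM, 20 with 5 RPM, 19 without the filter, 5 with the 5 RPM filter and 0 on roots alone. The 4 hormone calls became 10 with 5 RPM, 13 without the filter, and 2 on roots alone or outside the runs. The 31 defence calls became 17 with 0.1 RPM, 14 with the 5 RPM filter, 11 on roots alone and 3 outside the runs. The 13 redox calls became 6 with 0.1 RPM, 22 with 5 RPM, 20 without the filter, 10 with added-back reads and 0 on roots alone, and 2 to 12 when a line was left out. The tissue difference, 84 genes, became 161 with 5 RPM, 245 without the filter and 54 with TMM. The 168 genes at least 2-fold away became 607 at 1.5-fold and 69 at a mean of 20 RPM. With the replicate block 255 genes were called. No named gene that was called, in the main fit or under an alternative, changed the sign of its fold change. Small fold changes of some uncalled named genes did change sign, such as OsIRT1, at -0.09 in the main fit and 0.17 without line 13. Of the values of named genes under the alternatives, 585 of called genes kept the call and 159 lost it. Those of uncalled genes stayed so in 1389 cases, and 4 gained a call. Of the medians of classes and lists, 624 of 728 stayed within the spread over lines. The cell wall median, -0.12, lay between -0.15 and -0.05 under every alternative, and the PR1-like median, 1.25, was -0.36 outside the runs. The median of all genes moved by at most 0.01. The cause of these changes was not tested, except that the fit on roots alone has fewer residual degrees of freedom. At these depths a gene near 1 RPM rests on few reads, so its fold is imprecise. The description of TGACG in promoters was not run, for want of a promoter table.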

Other observations

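Outside the 5 classes, ribosome and translation genes leaned above NT. Of 538 tested genes, 287 were above it in all 3 lines (53.3%, against 31.9% of all genes) and 83 below (15.4%, against 33.4%). Their median log2 fold change was 0.10, and 2 were called (0.372%, against 1.16% of all genes), both higher. Glycosyltransferases leaned the other way, with 94 of 215 below (43.7%, against 33.4% of all genes) and 61 above (28.4%, against 31.9%). Genes of unknown function had calls in both directions, 65 higher and 35 lower among 6012 tested (1.66%, against 1.16% of all genes). Outside the runs 52 were higher and 11 lower. Heat shock proteins and chaperones had no call among 210, with 8 higher and 31 lower at an unadjusted p under 0.05 in limma. All genes gave 6.16% higher and 7.3% lower at that p. Their summed level was 10827 RPM in NT against 9923, 9531 and 9610 RPM in the lines.

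Among photosynthesis and plastid genes, which roots express at low levels, 4 rose and 3 fell of 330 tested (2.12%, against 1.16% of all genes). Of these calls, 2 higher and 2 lower lay outside the runs. The deduction inferred above lowers root values most for genes abundant in leaves, so such root values are uncertain. Their summed level was 8197 RPM in NT against 8215, 8032 and 8277 RPM in the lines.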
